A study of Mus musculus with 4 samples.

Results

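Phgdh and 9 other genes of serine synthesis, one-carbon metabolism and amino acid supply were followed in RNA from cells sorted out of B16-F10 tumors, a mouse melanoma model. The 10 genes, which were picked by symbol with their difference between the groups already known, were all found among the 55367 gene rows of each count table. They are Phgdh, Psat1, Psph, Shmt1, Shmt2, Mthfd2, Mthfd1l, Slc7a5, Asns and Atf4. The labels gave 2 libraries titled WT and 2 titled KO, without the age, strain or sex of the animals by library. The series names Satb1 F/F mice with ThPOK-cre, which acts in the CD4 lineage, and with E8I-cre, which acts in mature CD8 T cells, but the labels do not say which of these the KO libraries carry. All 4 libraries shared the tumor line, the dissociation and the gate on CD45.2, carried by leukocytes, and on CD8, the co-receptor of cytotoxic T cells. Nothing in the labels says whether the 2 libraries of a group came from separate animals, so that p-values measure only the spread between these libraries.

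Cells make serine from the glycolytic intermediate 3-phosphoglycerate in a chain of enzymes that starts with PHGDH, continues with PSAT1 and ends with PSPH. Serine hydroxymethyltransferases then split serine into glycine and a one-carbon unit carried by folate, which MTHFD2 and MTHFD1L process in mitochondria and which is needed for purines and thymidylate. ATF4 is the transcription factor of the integrated stress response, is controlled largely at the level of translation, and is known to activate many of these genes when amino acids are scarce. Activated, dividing T cells are known to raise the pathway.

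Several features of the libraries, among them a macrophage content that goes against the gate, touch every comparison. Reads on genes ranged from 4017875 to 5382915 per library, and genes with at least 1 count from 15684 to 18655. Satb1, the gene floxed in these mice, was counted 7 and 5 times in WT 1 and WT 2 but 131 and 55 times in KO 1 and KO 2, so that directions are given here for the libraries as labeled. These counts do not settle whether the titles match the genotypes, on which every direction given here depends. The summed level of 10 T cell markers, all detected in all 4 libraries, was 89.4 and 122 normalized CPM (reads of a gene per 1000000 reads on genes, after scaling between libraries) in WT 1 and WT 2 and 2035 and 1212 in KO 1 and KO 2. Against the gate, 12 macrophage or monocyte markers summed to between 7334 and 28148 normalized CPM, more than the T cell markers in every library. The ratio of Satb1 to the summed T cell markers was 0.0234 and 0.0101 in WT 1 and WT 2 against 0.0122 and 0.00788 in KO 1 and KO 2, so that the groups overlapped on that scale. Counts of Xist, the RNA that silences one X in female cells, were 435 and 216 in WT 1 and WT 2 against 0 and 3 in KO 1 and KO 2, whereas 4 Y-linked genes together had 0 and 0 against 416 and 255. Sex, cell content and label therefore cannot be told apart in this design. In such bulk samples fewer cells of a type and less RNA per cell cannot be told apart either.

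Because 1 known route to these genes is through promoter elements, a promoter piece with a motif match is shown for each of the 2 genes whose levels differed most between the groups. In the RefSeq promoters of GRCm38.p6 (250 bases before to 50 after a start, 1 or more per gene), 9 of the 10 genes had an entry and Slc7a5 had none. The capitals mark the matched letters, and both pieces are written 5′ to 3′ on the minus strand of the chromosome, which is the coding strand of both genes.
Phgdh, chr3:98340000-98340089: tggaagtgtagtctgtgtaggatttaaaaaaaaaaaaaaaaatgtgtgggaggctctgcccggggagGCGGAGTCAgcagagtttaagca
Asns, chr6:7693214-7693243: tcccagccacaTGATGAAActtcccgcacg
The Asns match was to the C/EBP-ATF response element, searched as TGATGNAA on both strands, and began 23 bases before the RefSeq start, inside the longer Asns gene model of GENCODE M21. It was the only match among the 9 genes, and 4.51% of all genes (3.97% of 32851 promoters) held one. The Phgdh match was to an antioxidant response element, searched as TGACNNNGC, on the opposite strand and beginning 53 bases before the start. Psph and Asns held this element too, the latter outside the piece shown, making 3 of 9 genes, against 14.0% of all 27025 genes with a promoter (12.4% of promoters). No match to the E-box CACGTG was found in the 9 genes, and 8.09% of all genes (7.15% of promoters) held one. The letters of the elements do not overlap in these promoters, and such matches describe the sequence only.

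The libraries labeled KO were compared with those labeled WT. For the 10 genes this contrast was known when they were chosen, so that their differences are given as a description, with no p-value. All 10 passed the filter on low counts, and the lowest count of any of them in any library was 22 (Phgdh in WT 1). In the fit over all genes, 1 of the 10, Phgdh, was past the threshold and higher, where 0.549% of the 11837 genes tested were higher and 0.0253% lower. For 8 of the 10 genes both libraries labeled KO lay above both libraries labeled WT, against 25.3% of all genes tested, and for none did both lie below, against 22.6%. Over the 10 genes the median log2 fold change, KO relative to WT, was 1.01, and it was 0.99 without Phgdh, beside 0.05 over all genes tested. It was above 0 for 9 of 10 genes, against 52.6% of all genes tested, and Atf4, the exception, came out above 0 as well when libraries were scaled by their totals only.

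**Figure D1:**
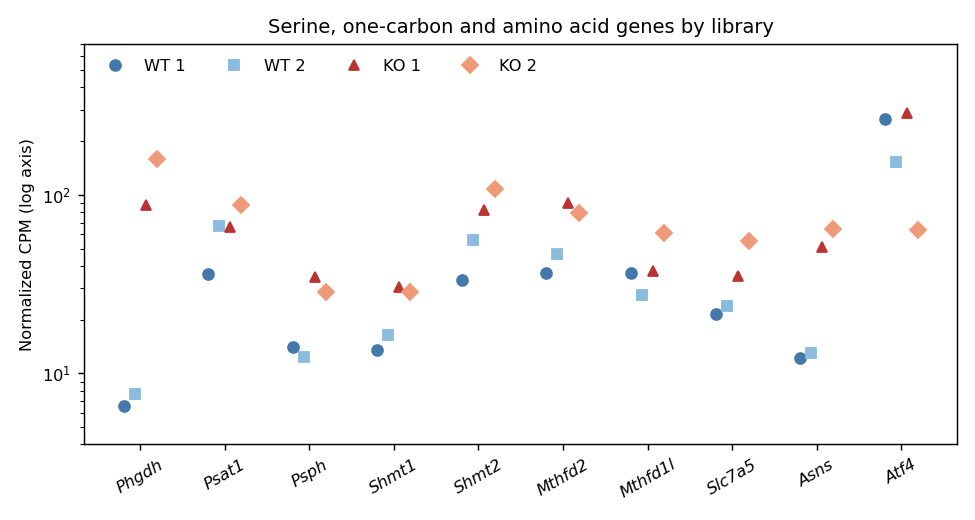
Normalized CPM (vertical log axis) of the 10 genes (horizontal axis) in each of the 4 libraries, 1 symbol per library. Phgdh shows the widest gap between the groups, from 7.64 in the higher WT library to 87.8 in the lower KO library, and the groups overlap for Psat1 and Atf4.

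The enzymes that make serine did not move alike. Phgdh (chromosome 3, 98313170 to 98339990, minus strand of GRCm38/mm10), the entry enzyme, was counted 22 and 31 times in WT 1 and WT 2, and 464 and 910 times in KO 1 and KO 2. Its normalized CPM were 6.58, 7.64, 87.8 and 158, so that both libraries labeled KO were far above both labeled WT, which were close to each other. The group means were 7.11 ± 0.749 (SD, n = 2) and 123 ± 49.6 (SD, n = 2), a ratio of 17.3, and the lower KO library held 11.5 times the level of the higher WT library. The log2 fold change was 4.10 with a standard error (SE) of 0.53, and 1.43% of the genes tested had a larger one. Its pseudogene Phgdh-ps1 had 0 counts throughout.

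Psat1 (chromosome 19, 15904678 to 15947337, minus strand), the aminotransferase of the second step, had 36.2, 67.3, 65.7 and 87.7 normalized CPM in WT 1, WT 2, KO 1 and KO 2. WT 2 lay just above KO 1, so that the groups overlapped, and the log2 fold change of 0.57 (SE 0.47) was close to its error. Leaving out WT 1 took it to 0.14, and leaving out WT 2 to 1.04. Psph (chromosome 5, 129765558 to 129787449, minus strand), the phosphatase that releases serine, had 14.1 and 12.3 normalized CPM in WT 1 and WT 2 against 34.5 and 28.5 in KO 1 and KO 2. These did not overlap, with group means of 13.2 ± 1.23 and 31.5 ± 4.23 (SD, n = 2 each) and a log2 fold change of 1.25 (SE 0.49). Psph shares 10.4% of its exonic bases with Cct6a on the other strand, and since no source says that reads were counted by strand, its counts may include reads of that gene.

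The make-up of this 3-enzyme chain is given as a description, since it uses the values with which Phgdh was chosen. Phgdh held 11.6% of the reads on Phgdh, Psat1 and Psph in WT 1 (exact Clopper-Pearson 95% interval 7.40% to 17.0%) and 8.76% in WT 2 (6.03% to 12.2%). It held 46.7% in KO 1 (43.6% to 49.9%) and 57.6% in KO 2 (55.2% to 60.1%). The intervals cover counting error only and not the spread between libraries.

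Per length of merged exons, where levels of different genes can be set side by side, Phgdh was last of the 10 genes in the libraries labeled WT and next to highest in those labeled KO. Its level was 2.86 ± 0.301 normalized CPM per kilobase (SD, n = 2) in the former, not separate from Psph at 3.05 ± 0.283, and without WT 1 it had rank 9. In the latter it was 49.4 ± 19.96, above both libraries of every other member apart from Atf4. Per kilobase of the longest transcript instead, it overlapped with Shmt2 in the KO group. Atf4 was highest in both groups, at 89.0 ± 33.8 and 74.7 ± 67.3 normalized CPM per kilobase, but without KO 1 it had rank 3 in the KO group and Phgdh had rank 1. The order in the WT group was Atf4, Shmt2, Psat1, Mthfd2, Mthfd1l, Slc7a5, Asns, Shmt1, Psph and Phgdh. Of these neighbors Shmt2 and Psat1, Psat1 and Mthfd2, Mthfd1l and Slc7a5, and Psph and Phgdh overlapped in level per kilobase. In the KO group it was Atf4, Phgdh, Shmt2, Mthfd2, Asns, Psat1, Slc7a5, Mthfd1l, Shmt1 and Psph, and Atf4 and Phgdh, Mthfd2 and Asns, Asns and Psat1, Slc7a5 and Mthfd1l, and Shmt1 and Psph overlapped.

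**Figure D2:**
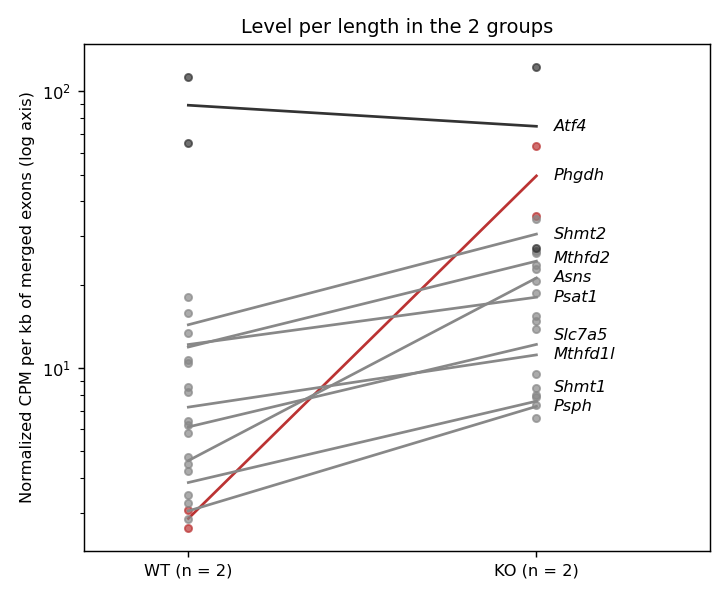
Normalized CPM per kilobase of merged exons (vertical log axis) in the libraries labeled WT and KO (2 points each), with lines joining the group means of each gene. Phgdh, in red, goes from the lowest mean, 2.86, to 49.4, and the 2 points of Atf4 in the KO group lie far apart, at 27.1 and 122.

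The serine hydroxymethyltransferases and the mitochondrial folate enzymes were each higher in both libraries labeled KO, by about the same factor for 3 of the 4. Shmt2 (chromosome 10, 127517123 to 127522444, minus strand), the mitochondrial enzyme, had 33.2 and 55.9 normalized CPM in WT 1 and WT 2 against 82.2 and 107 in KO 1 and KO 2, a log2 fold change of 1.09 (SE 0.46). The lower KO library was 1.47 times the higher WT library. Shmt1 (chromosome 11, 60788104 to 60811718, minus strand), the cytosolic enzyme, had 13.5 and 16.5 against 30.5 and 28.5 normalized CPM, with little spread within groups and a log2 fold change of 0.97 (SE 0.48). It shares 4.74% of its exonic bases with Smcr8 on the other strand.

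The share of Shmt2 in the reads on Shmt1 and Shmt2 was 71.2% in WT 1 (exact Clopper-Pearson 95% interval 63.4% to 78.1%), 77.2% in WT 2 (72.0% to 81.9%), 72.9% in KO 1 (69.2% to 76.5%) and 79.0% in KO 2 (76.0% to 81.8%). The groups overlapped. Mthfd2 (chromosome 6, 83305691 to 83325908, minus strand), a dehydrogenase and cyclohydrolase abundant in dividing cells, had 36.5 and 46.6 against 90.5 and 79.2 normalized CPM, a log2 fold change of 1.03 (SE 0.42). Mthfd1l (chromosome 10, 3973118 to 4167081, plus strand), the synthetase that releases formate, had 36.5 and 27.6 against 37.5 and 61.5. Its groups were separated by a margin of 1.03 times only, its log2 fold change was 0.63 (SE 0.46), and without KO 2 it was 0.19.

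Of the genes for amino acid supply, Asns (chromosome 6, 7675169 to 7693254, minus strand), which makes asparagine and is a standard target of ATF4, had 12.3 and 13.1 normalized CPM in WT 1 and WT 2 and 51.1 and 64.6 in KO 1 and KO 2. The libraries within each group were close, with means of 12.7 ± 0.565 and 57.9 ± 9.53 (SD, n = 2 each), a ratio of 4.57. Its log2 fold change of 2.19 (SE 0.46) was the next largest after Phgdh, 5.21% of the genes tested had a larger one, and it was not past the threshold. Its log2 fold change was 2.34 without KO 1 and 1.97 without KO 2. The threshold was passed in 6 of 14 alternatives, these included, but with KO as a single library the spread came from the WT pair alone. Slc7a5 (chromosome 8, 121881150 to 121907694, minus strand), the light chain of a transporter that imports large neutral amino acids, had 21.5 and 23.9 against 35.2 and 55.0 normalized CPM, a log2 fold change of 0.99 (SE 0.46) that became 0.59 without KO 2. Slc3a2, the heavy chain that pairs with it, named here after its values were seen, did not share this separation. It had 906 and 493 against 319 and 522 normalized CPM, with overlapping groups and a log2 fold change of -0.73 (SE 0.53, edgeR adjusted p = 0.558).

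Atf4 (chromosome 15, 80255184 to 80257541, plus strand), the transcription factor, had 266 and 154 normalized CPM in WT 1 and WT 2 and 288 and 63.9 in KO 1 and KO 2. The highest and the lowest value were thus both in libraries labeled KO, which differed 4.51-fold from each other, and the log2 fold change was -0.25 (SE 0.66). Its sign depended on single libraries, since the value was -1.72 without KO 1, 0.42 without KO 2 and 0.11 without WT 1. KO 2, the library with the lowest Atf4, had the highest Phgdh, Psat1, Shmt2, Mthfd1l, Slc7a5 and Asns, whereas Psph, Shmt1 and Mthfd2 were highest in KO 1, the library with the highest Atf4. Atf4 took 55.9%, 36.2%, 35.9% and 8.70% of the reads on the 10 genes in WT 1, WT 2, KO 1 and KO 2.

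**Figure D3:**
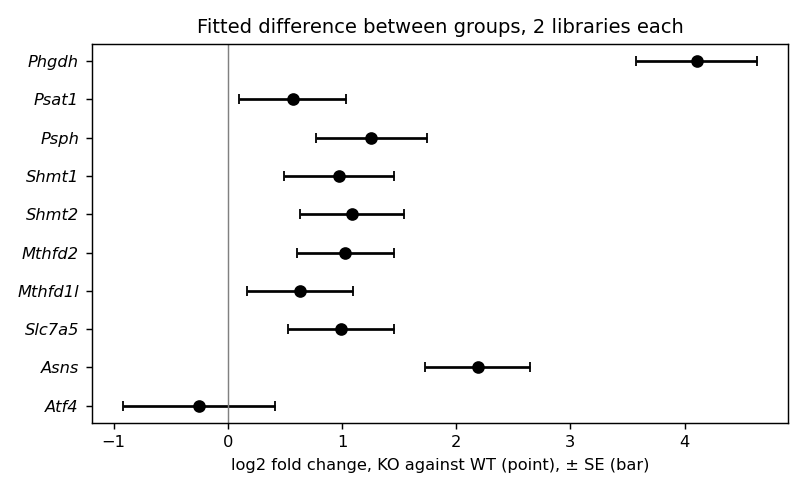
Fitted log2 fold change of KO against WT (horizontal axis, points) with its SE (bars) for the 10 genes, from 2 libraries per group. Phgdh at 4.10 and Asns at 2.19 stand above the other genes, which lie between -0.25 and 1.25.

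Of 9 marker lists, 6 did not overlap between the groups in summed level. Among single genes tested, both libraries labeled KO lay above both labeled WT for 25.3% and below for 22.6%. The T cell list of 10 genes was 15.4 times higher on average in the libraries labeled KO. Of its 10 genes 8 were past the threshold and higher, against 0.549% of all genes tested. The list of 8 dividing cell genes summed to 253 and 424 against 919 and 839 normalized CPM, with 0 past the threshold. The melanoma list of 7 genes summed to 261 and 267 against 1965 and 1171, with 1 past the threshold. The fibroblast or endothelium list of 6 genes summed to 24.8 and 20.2 against 1149 and 185, with 3 past the threshold and higher and Pdgfrb at 0 counts in both libraries labeled WT. The macrophage or monocyte list summed to 27030 and 28148 against 7334 and 16823, with 0 past the threshold. It was 2.28 times higher on average in the libraries labeled WT. The B cell list stayed at or below 1.70 normalized CPM in sum. The dendritic cell list (126 and 181 against 213 and 119) overlapped between the groups, as did the NK cell and neutrophil lists.

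Set against the summed T cell markers, no member was higher in both libraries labeled KO. That sum was itself 15.4 times higher on average in the libraries labeled KO. A gene with equal levels in all libraries would thus be lower in both on this scale. The ratio of Phgdh to that sum was 0.0736 and 0.0626 in the WT group against 0.0432 (KO 1) and 0.130 (KO 2), so that the groups overlapped. For the other 9 members the ratio was lower in both libraries labeled KO, and the share of all genes on this scale was not computed. Asns, for example, had ratios of 0.137 and 0.107 against 0.0251 and 0.0533.

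Set against the summed dividing cell markers, Phgdh (0.0260 and 0.0180 against 0.0956 and 0.188) and Asns (0.0484 and 0.0308 against 0.0556 and 0.0770) were higher in both libraries labeled KO. Of the other 8 members, 5 were lower in both and 3 overlapped. The dividing cell sum was itself 2.59 times higher on average in the libraries labeled KO. A gene with equal levels in all libraries would thus be lower in both, and the share of all genes was not computed. Set against the summed melanoma markers, Phgdh alone was higher in both libraries labeled KO, at 0.0252 and 0.0286 against 0.0447 and 0.135. Asns overlapped, and the other 8 were lower in both. The melanoma sum was itself 5.94 times higher on average in the libraries labeled KO. On this scale too a gene with equal levels would be lower in both, and the share of all genes was not computed. With 2 libraries against 2 an exact permutation test cannot give a p-value below 0.333, so that none of these ratios was tested. What part the cell types had in the differences of the members was not tested.

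**Figure D4:**
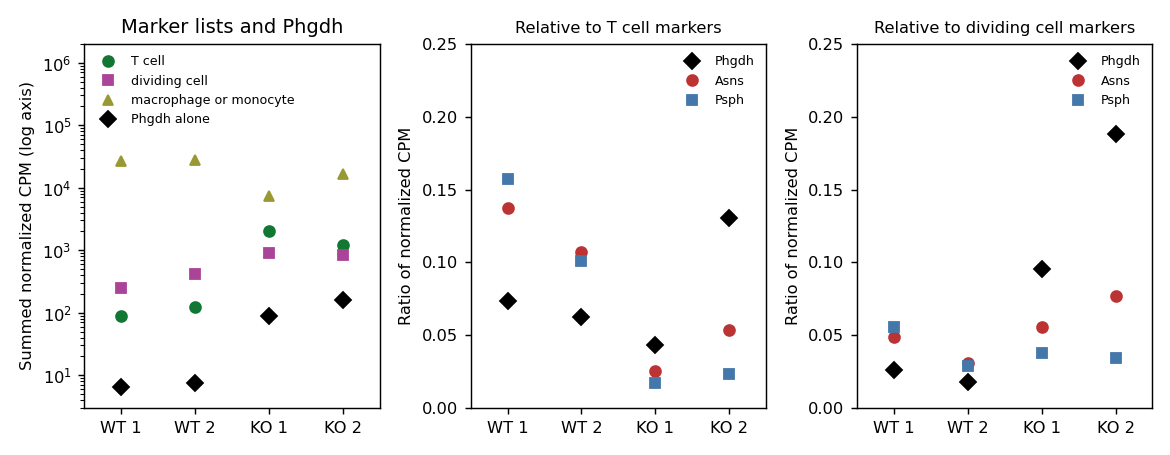
Left, summed normalized CPM of 3 marker lists and the level of Phgdh in the 4 libraries (log axis); middle and right, the levels of Phgdh, Asns and Psph divided by the summed T cell and dividing cell markers (linear axes from 0). Relative to T cell markers Phgdh overlaps between the groups, from 0.0432 to 0.130 in the KO libraries around the WT values, and relative to dividing cell markers it does not.

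The 5 other genes with the pattern most like Phgdh were sought in a comparison over 6208 genes, by the Euclidean distance between log2 normalized CPM centered on each gene's mean over the 4 libraries. They were Tnfrsf4 (distance 0.31), a costimulatory receptor, Rgs16 (0.38), a regulator of G protein signaling, Sh2d2a (0.55), an adaptor of T cell receptor signaling, Il2rb (0.58), a cytokine receptor chain, and Zap70 (0.61), a T cell receptor kinase. Tnfrsf4, the closest, had 5.98 and 5.91 against 65.3 and 106 normalized CPM. The distance rests on 4 libraries in 2 groups.

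Beyond the 10 genes, the neighboring parts of the pathway were measured in 142 genes on 10 lists, of which 127 passed the filter on low counts. In edgeR's quasi-likelihood test with Benjamini-Hochberg adjustment, 0 of the 127 were past the threshold in either direction. At an unadjusted p under 0.05, 26 (20.5%) were higher and 2 (1.57%) lower, against 9.44% and 4.23% of all genes tested. For 52 (40.9%) both libraries labeled KO lay above both labeled WT, and for 12 (9.45%) below, against 25.3% and 22.6% of all genes tested. DESeq2 called 2 of the 142 genes, Tyms and Eprs, both higher, where it called 2.25% of its 13828 genes higher and 0.456% lower. Leaving out KO 2 gave 9 calls that were higher and 6 that were lower, where 5.64% of all genes were called higher and 4.08% lower, and the spread came from the WT pair alone.

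Purine synthesis consumes the one-carbon units, and 0 genes on the list of purine and pyrimidine synthesis were past the threshold. All 15 tested genes of purine and pyrimidine synthesis had log2 fold changes above 0, with a median of 0.85 and a range from 0.03 to 1.75, and 7 (46.7%) were higher at an unadjusted p under 0.05, against 9.44% of all genes tested. For 10 (66.7%) both libraries labeled KO lay above both labeled WT, against 25.3% of all genes tested. The groups overlapped for the other 5, among them Dhodh of pyrimidine synthesis, named after its values were seen, with 10.8 and 18.0 against 11.5 and 17.9 normalized CPM. Ppat, the entry enzyme of purine synthesis, had 5.68 and 11.1 against 33.3 and 23.4 normalized CPM (log2 fold change 1.75, SE 0.57, edgeR adjusted p = 0.236). Cad, the entry enzyme of pyrimidine synthesis, had 11.1 and 19.7 against 34.8 and 68.9 (1.75, SE 0.54, edgeR adjusted p = 0.217), with a log2 fold change of 1.13 without KO 2.

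The folate list was mixed, with a median log2 fold change of 0.08 over 14 genes tested, 9 of them above 0. Tyms, which makes thymidylate from a folate one-carbon unit, had 8.97 and 22.2 against 79.3 and 48.6 normalized CPM (log2 fold change 2.03, SE 0.56, edgeR adjusted p = 0.168), with a log2 fold change of 2.77 without WT 2. Mthfd1, the cytosolic 3-activity folate enzyme, had 13.8 and 28.6 against 45.1 and 71.4 (1.45, SE 0.52, edgeR adjusted p = 0.273), with a log2 fold change of 2.04 without WT 2. Among 9 tested genes of serine and glycine use, with a median of 0.28, Gldc of the glycine cleavage system had 2 and 2 counts against 17 and 70. It passed the filter and the rule for naming genes only through the libraries labeled KO, so that its values are a description. Its pooled ratio was 14.6, with a 95% interval for counting error alone from 5.49 to 54.7, and its log2 fold change was 3.76, or 2.47 without KO 2 and 4.41 without KO 1. Dld, a subunit of that system and of other dehydrogenases, had 16.1 and 25.6 against 70.6 and 43.1 normalized CPM (1.44, SE 0.49, edgeR adjusted p = 0.252).

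Amino acid transporters had a median log2 fold change of 0.45 over 14 genes, with values from -1.10 to 2.50. Sfxn1, the mitochondrial serine carrier, had 18.5 and 37.0 against 83.9 and 65.5 normalized CPM (log2 fold change 1.42, SE 0.49, edgeR adjusted p = 0.258). Slc38a2, a neutral amino acid carrier, had 90.3 and 47.3 against 272 and 88.7, with overlapping groups (1.39, SE 0.60, edgeR adjusted p = 0.350), with a log2 fold change of 0.36 without KO 1. The 20 cytosolic aminoacyl-tRNA synthetases had a median of 0.55, with 18 (90.0%) above 0 and 11 (55.0%) with both libraries labeled KO above both labeled WT, against 52.6% and 25.3% of all genes tested. The largest were Eprs (1.68, SE 0.46) and Dars (1.55, SE 0.51), with edgeR adjusted p-values of 0.168 and 0.240, and Dars was at 2.23 without WT 2.

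Genes of the integrated stress response had a median log2 fold change of -0.06 over 17 genes tested, with 7 above 0 and 10 below. At an unadjusted p under 0.05, 3 (17.6%) were higher and 0 lower, against 9.44% and 4.23% of all genes tested. The largest were the kinases Eif2ak2, with 5.68 and 3.45 against 28.2 and 7.12 normalized CPM (1.95, SE 0.77, edgeR adjusted p = 0.310), and Eif2ak3, with 4.49 and 6.90 against 22.3 and 11.1 (1.54, SE 0.64, edgeR adjusted p = 0.332). Without KO 1 their log2 fold changes were 0.64 and 0.95, and without KO 2 they were 2.59 and 1.92. In the list of supply and control genes, with a median of -0.14 over 12 genes, Eif4ebp1, a translation inhibitor, had 629 and 295 against 137 and 223 normalized CPM (-1.36, SE 0.54, edgeR adjusted p = 0.310), with a log2 fold change of -0.76 without WT 1. Rps6kb1, a kinase of the mTOR pathway, had 8.37 and 12.8 against 34.5 and 13.02 (1.16, SE 0.62, edgeR adjusted p = 0.446), with a log2 fold change of 0.29 without KO 1.

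The remaining 3 lists held no gene past the threshold either. The methionine, transsulfuration and polyamine genes had a median log2 fold change of 0.83 over 10 genes, all above 0, with the polyamine enzymes Odc1 at 1.23 (SE 0.43, edgeR adjusted p = 0.263) and Sms at 1.21 (SE 0.45, edgeR adjusted p = 0.288). The 5 genes of glutathione synthesis had a median of 0.35, and their largest values were those of Gclc, at 0.98 (SE 0.62, edgeR adjusted p = 0.510), and Gclm, at 0.62 (SE 0.54, edgeR adjusted p = 0.642), which turned to -0.30 without KO 2. Other amino acid synthesis had a median of 0.33 over 11 genes. Pcx, pyruvate carboxylase, had 4 and 6 counts in WT 1 and WT 2 against 23 and 52 in KO 1 and KO 2. It passed the filter and the rule for naming genes only through the libraries labeled KO, so that its values are a description. Its log2 fold change was 2.30 (SE 0.87), or 1.64 without KO 2. No list is singled out by these medians, which differ in the number of genes and were not tested against each other.

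**Figure D5:**
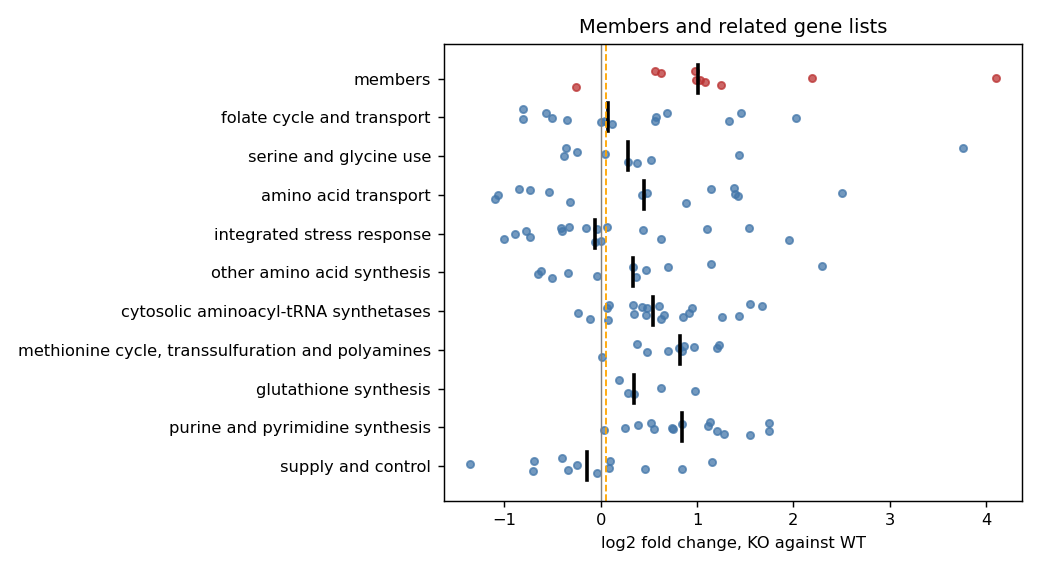
Log2 fold change of KO against WT (horizontal axis) of each tested gene (points, shifted vertically to keep them apart) on the 10 related lists and of the 10 members, with the median of each list (black bar) and of all genes tested (dashed line, 0.05). The members' median is 1.01, and those of the lists run from -0.14 to 0.85.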

How the data were processed

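The authors deposited unnormalized read counts per gene symbol, 1 table per library, made per the labels with HISAT2 2.1.0 on mm10 and HTSeq 0.11.0. The annotation, trimming and strand setting are not given in the sources used here. Reads that did not align made up 30.3% to 44.2% of a table and reads on no feature 22.3% to 29.5%. All rows naming no gene were left out, so that 20.5% to 28.8% of reads remained. Genes matched GENCODE M21 for 96.1% of rows.

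KO was compared with WT in R 4.3.3 with edgeR 4.0.16 (filterByExpr, TMM scaling, quasi-likelihood F test with group as the only term, two-sided, Benjamini-Hochberg adjustment over 11837 genes, threshold 0.05, prior count 0.125). Each SE was taken as the size of the log2 fold change over the root of its F. Normalized CPM used TMM-scaled totals of the gene rows, and 3 counts were 0.521 to 0.897 normalized CPM. Intervals cover counting error only. The genes, lists and tests were chosen with earlier results of these data known. Besides the 10 genes, the text names from each list any gene past the threshold and the 2 largest fold changes where the higher group averaged 20 or more normalized counts, and the 5 genes most like Phgdh with a mean of at least 20 normalized CPM, except 1 gene that is not reported here. In simulated data for KO against WT, 94.5% of the genes given a log2 change of 4 were recovered among 11531 genes, and 33.5% of those given 2 among 11516. The 14 alternatives included DESeq2 1.42.0. Plots used matplotlib 3.10.9.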

Additional observations from a re-analysis of the deposited data

How the results depend on the processing

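Over the 14 alternatives the log2 fold change of Phgdh ran from 3.58 to 4.46. Phgdh was past the threshold in each and Asns in 6, which brought the number of members called from 1 to 2 with library totals only, without a filter on low counts, with DESeq2, with a crossed pairing of the libraries, and without KO 1 or KO 2. Leaving out a library gave 1 to 2 member calls. These genes were chosen with the contrast known, so that the calls are no independent support, and with 1 library left in a group the lone library is assumed to vary like the other group. Library totals only moved the median log2 fold change of all genes from 0.05 to 0.38 and that of the members from 1.01 to 1.33. Over all genes, 65 higher and 3 lower calls became 133 higher with library totals only, 505 and 78 without a filter, 110 and 5 with a stricter filter and 311 and 63 with DESeq2. Leaving out a library gave 99 to 725 higher and 7 to 524 lower calls. Calls on the related lists went from 0 to 2 higher without a filter or with DESeq2, and leaving out a library gave 0 to 9 higher and 0 to 6 lower. Without a library, the level per kilobase of Phgdh had rank 9 to 10 in the WT group and rank 1 to 2 in the KO group, and that of Atf4 rank 1 to 3 in the KO group. The log2 fold change of Gclm ran from -0.30 without KO 2 to 1.16 without KO 1. Leaving out KO 2 gave the most calls over all genes, 725 higher and 524 lower. The cause of these shifts was not tested.

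The deviations of same-numbered libraries had a weak correlation of -0.18 over 11837 genes, and the numbers were not taken as pairs. With a replicate block, 201 genes were higher and 14 lower, the members called stayed at 1 and the related lists at 0. A crossed block, added after seeing the data, gave 535 higher and 112 lower calls, 2 members and 5 higher calls on the lists.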
